A study of Mus musculus with 10 samples.

Results

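The gene set described here comprises the enzymes and carriers of fatty acid oxidation and ketogenesis in mouse liver, 35 genes listed by symbol, with earlier results of these data known. They divide into 20 mitochondrial genes, 9 peroxisomal genes, 5 omega-oxidation genes of the Cyp4a family and 1 ketogenic gene, Bdh1. All 35 were found among the 23055 named genes of the count table, and all 35 were among the 13687 genes that held enough counts to be tested. Liver was taken from wild-type (WT) mice and from mice labelled as knockouts of Ifrd1 (KO), an interferon-related developmental regulator. Both groups had undergone partial hepatectomy, the removal of the left lateral and median lobes under isoflurane, and were sampled 12 h later, so no unoperated or other time point enters any comparison. There were 6 WT and 4 KO libraries of polyadenylated RNA. The labels do not give strain, sex, age or the cell type in which Ifrd1 was deleted.

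Fatty acids enter mitochondria as carnitine esters and are shortened by repeated rounds of dehydrogenation, hydration, a second dehydrogenation and thiolysis, with electrons passed on through the electron transfer flavoprotein. Peroxisomes shorten very long and branched chains and hand shortened acyl groups to mitochondria, whereas the Cyp4a enzymes of the endoplasmic reticulum hydroxylate the far end of the chain, which is the start of omega-oxidation. In liver the acetyl-CoA produced can be turned into ketone bodies, and the nuclear receptor PPARA is known to control many genes of all these routes. After partial hepatectomy the remaining liver takes up fat released from adipose tissue, and this is a known source of energy for its regrowth.

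The libraries held 12306369 to 17096628 counts in named genes. Ifrd1 was measured at 40.2 to 81.7 CPM (counts scaled to library size) in the WT libraries and at 13.0 to 22.6 CPM in the KO libraries, without overlap. The 35 genes took up 0.583% ± 0.135 (SD, n = 6) of the counts in WT and 0.845% ± 0.166 (SD, n = 4) in KO. WT replicate 4 (WT 4) was often nearer to the average KO library than to the average of the 5 remaining WT libraries. This held in 69.9% of the tested genes and in 27 of the 35 set genes. The same share was not computed for the other WT libraries, so it does not show WT 4 to be the only one apart. For named genes where leaving WT 4 out changed a call, the value without it is given. Because WT 4 was singled out from this same comparison of KO with WT, leaving it out favours larger differences. Over all genes, 182 were called with it and 2893 without it. Calls without WT 4 are therefore descriptive and give no independent support. All 12 Kupffer cell and macrophage markers had lower values in KO, with 0 called (7 at an unadjusted p under 0.05), and their summed level ranged from 77.0 to 457 CPM in WT and from 62.5 to 112 CPM in KO. None of those 12 markers was at 0 in every library. Neutrophil and monocyte markers were lower in KO in 6 of the 7 tested, with 0 called (3 at an unadjusted p under 0.05). Their sum spanned 1564 to 5127 CPM in WT and 2242 to 3568 CPM in KO. Nearly all of that sum was Lcn2 (mean 2944 of 2993 CPM in WT and 2773 of 2787 CPM in KO), so it says little about the other markers. Of the zonation markers, Glul (pericentral) and Aldh1b1 (periportal) were called higher, and Rhbg (pericentral) and Sds (periportal) lower. Among endothelial, cholangiocyte and adipocyte markers 1 each was called higher. Summed hepatocyte markers spanned 55460 to 104520 CPM in WT and 69403 to 78976 CPM in KO. The part that cell composition has in the values below was not tested, and in whole liver fewer cells of a type cannot be told apart from less RNA per cell.

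Fatty acid oxidation transcripts were mostly more abundant in KO liver, but few differences passed the test over all genes. Of the 35 genes, 30 had a fold change above 0, with a median log2 fold change of 0.48, whereas 48.4% of all tested genes had a fold change above 0 and their median was -0.02. By the quasi-likelihood test of edgeR, with p-values adjusted after Benjamini and Hochberg, 3 of the 35 were called higher in KO, against a background of 0.563% of tested genes. None (0) was called lower, against 0.767%, and the background in either direction was 1.33%. At an unadjusted p under 0.05 there were 19 higher and 1 lower, where 11.6% and 14.4% of all tested genes met that limit (26% in either direction). The 3 called genes are all mitochondrial, namely Eci1, Hadh and Acadm. All KO libraries lay above all WT libraries for 6 of the 35 genes (Acadm, Hadh, Eci1, Acaa1a, Crot and Cyp4a10), a pattern shown by 3.61% of tested genes. For 0 of the 35 did all KO libraries lie below all WT libraries, as they did for 3.29% of tested genes, and the groups were apart in either direction for 6.9%. When WT 4 was left out, 17 of the 35 were called higher (background 10.5%) and 1, Pdk4, was called lower (background 10.9%). When any 1 of the other 9 libraries was left out, 0 of the 35 were called, where 0% to 0.405% of all tested genes were called. In those 9 fits 13 to 20 of the 35 still had an unadjusted p under 0.05, as did 2680 to 3470 of all tested genes. With 1 surrogate variable in the fit 0 were called as well, and so were 0 of all tested genes. In that fit 2 of the 35 had an unadjusted p under 0.05 (520 of all 13687 genes), and the median log2 fold change fell to 0.21. With the replicate number as a block 0 were called (1 of all tested genes). There 20 of the 35 had an unadjusted p under 0.05 (2929 of all 13687 genes), and the median was 0.50.

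**Figure D1:**
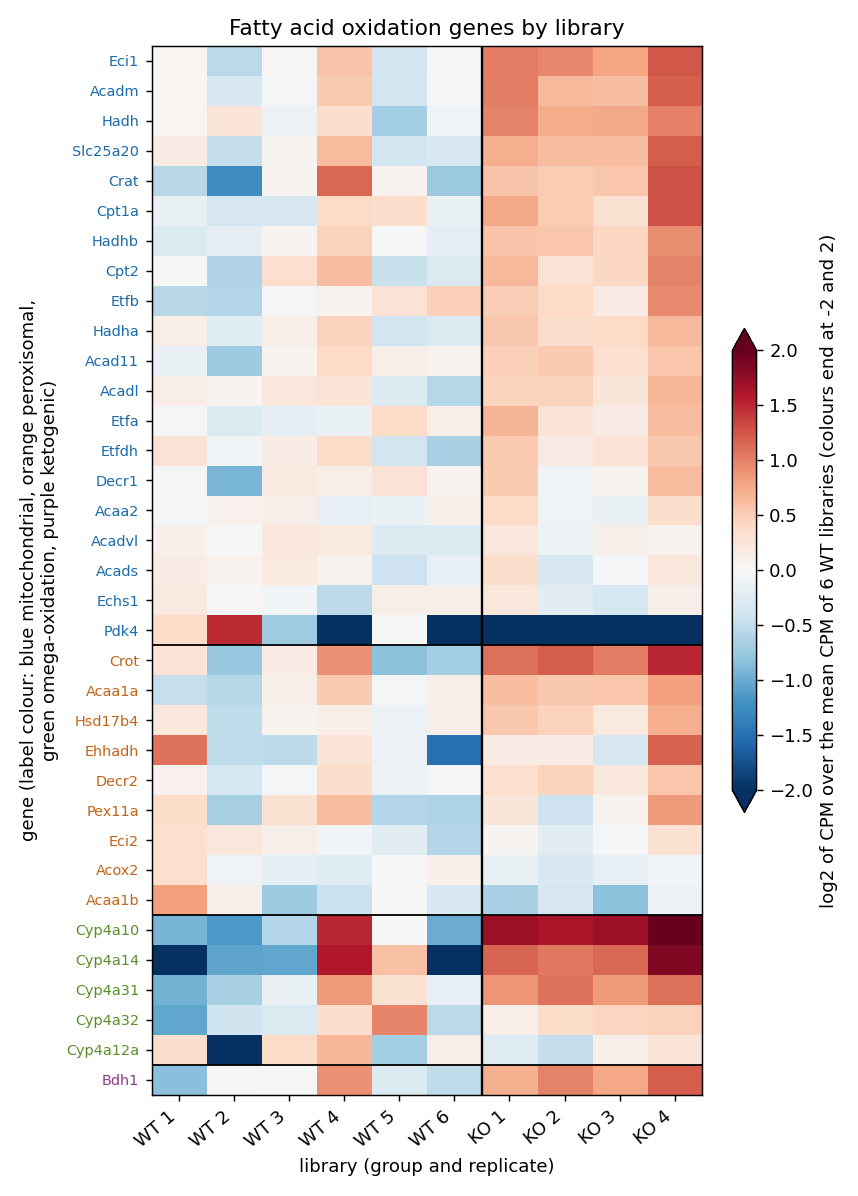
Heat map of the 35 genes (rows, grouped by compartment) in the 10 libraries (columns), with colour giving the log2 ratio of each CPM value to the mean of the 6 WT libraries and ending at -2 and 2. Most rows are red in the 4 KO columns, Pdk4 is blue there, and the WT 4 column resembles the KO columns for Crat, Crot, Cyp4a10, Cyp4a14, Bdh1 and Pdk4.

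The stretches of DNA before the 3 called genes are shown here because these genes carry the calls, along with the short interval from which Hadha and Hadhb, the subunits of one enzyme, are read in opposite directions. The sequences are from RefSeq on GRCm38.p6 and run 5′ to 3′ on the gene's strand, up to the base before the outermost transcription start of RefSeq and GENCODE, with capitals marking each GC box (GGGCGG, or CCGCCC where it lies on the other strand). The Eci1 stretch is chr17:24426521-24426640 (plus strand), the Hadh stretch chr3:131272102-131272221 (minus strand), the Acadm stretch chr3:153944644-153944763 (minus strand) and the Hadha to Hadhb interval chr5:30155163-30155247 (plus strand, 85 bases).
Eci1: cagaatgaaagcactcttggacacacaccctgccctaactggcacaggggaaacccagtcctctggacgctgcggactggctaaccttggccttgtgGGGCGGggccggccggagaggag
Hadh: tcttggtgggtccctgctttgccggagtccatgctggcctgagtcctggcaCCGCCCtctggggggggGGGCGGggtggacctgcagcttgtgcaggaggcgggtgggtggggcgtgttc
Acadm: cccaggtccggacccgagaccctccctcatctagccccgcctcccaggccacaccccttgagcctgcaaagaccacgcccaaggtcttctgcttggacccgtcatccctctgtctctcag
Hadha_Hadhb: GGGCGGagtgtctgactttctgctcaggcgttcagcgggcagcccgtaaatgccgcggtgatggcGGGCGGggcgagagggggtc
A GC box stood in the Eci1 stretch once and in the Hadh stretch at 2 places, and the Acadm stretch held 0. The RefSeq table held promoters for 27 of the 35 genes (29 promoters), and it had no entry for Crat, Acaa2, Decr1, Hsd17b4, Cyp4a10, Cyp4a12a, Cyp4a14 or Cyp4a31. A GC box on either strand occurred in the last 120 bases of 15 of the 29 (51.7%), and in 26.5% of all 32851 promoters of the table. The letters CCAAT, on either strand, occurred in 10 of the 29 (34.5%) and in 21.3% of all promoters.

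PPARA binds, as a dimer with RXR, to a pair of hexamers on the same strand that are spaced by 1 base. The form searched was AGGTCANAGGTCA, on both strands, from 250 bases before to 50 bases after each start. With at most 2 changed bases it occurred in 4 of the 29 set promoters (13.8%) and in 3.86% of all promoters. With at most 1 changed base it was in 0 of the 29, where 0.554% of all promoters held it, and with at most 3 the shares were 34.5% and 24.6%. The genes with a match at 2 changed bases were Acox2, Echs1, Etfa and Slc25a20, and none of them was called. The matches before Echs1 and Etfa are printed because they are the ones that lie upstream of the start. Capitals mark the match, which begins 83 bases before the start of Echs1 (chr7:140116478-140116544, minus strand) and 77 bases before that of Etfa (chr9:55512294-55512360, minus strand, match on the strand opposite to the gene).
Echs1: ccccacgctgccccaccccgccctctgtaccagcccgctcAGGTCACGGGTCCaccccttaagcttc
Etfa: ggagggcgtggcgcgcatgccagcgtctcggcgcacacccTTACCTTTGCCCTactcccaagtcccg
A match of this kind describes letters in a window, and promoter binding was not measured in these samples.

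The entry of acyl groups into mitochondria was represented by 4 genes, all with higher means in KO and none called. Cpt1a, the outer-membrane carnitine palmitoyltransferase that commits fatty acids to oxidation, had CPM values of 103, 118 and 169.9 (lowest, median and highest of the WT libraries) and of 219, 184, 160.2 and 312 in KO 1 to KO 4. Its groups overlapped at WT 4 and WT 5, with a log2 fold change of 0.76 (SE 0.22, adjusted p = 0.0744). Slc25a20, the carrier that exchanges acylcarnitine for carnitine across the inner membrane, had 97.1 ± 30.5 CPM in WT and 171 ± 36.1 CPM in KO (log2 fold change 0.82, adjusted p = 0.0686). Cpt2, the matrix enzyme that returns acyl groups to CoA, had 109 ± 36.5 CPM in WT and 166 ± 37.0 CPM in KO (0.61, adjusted p = 0.14). Crat, which handles short acyl groups, spanned 21.2 to 111 CPM in WT and 71.7 to 121 CPM in KO (0.76, SE 0.39, adjusted p = 0.235). Without WT 4 all 4 were called higher, with adjusted p of 0.0151 (Cpt1a), 0.00426 (Slc25a20), 0.0235 (Cpt2) and 0.0109 (Crat) by the same test.

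Acyl-CoA dehydrogenases carry out the first oxidation of each round, and the one for medium chains rose in KO. Acadm (ENSMUSG00000062908.12, protein-coding, chr3:153922357-153944632, minus strand, mm10) is that medium-chain enzyme. Its CPM values were 174, 136, 164, 243, 129.7 and 163 in WT 1 to WT 6 and 342, 263, 257 and 384 in KO 1 to KO 4. WT 4 was the highest WT library and still lay below the lowest KO library, so the groups did not overlap. The means were 168 ± 40.4 CPM (SD, n = 6) and 312 ± 61.8 CPM (SD, n = 4), a log2 fold change of 0.89 (SE 0.20, adjusted p = 0.0495). The call was lost when any library but WT 4 was left out (adjusted p 0.0691 to 0.148), and without WT 4 the adjusted p was 0.00236. With 1 surrogate variable the log2 fold change of Acadm was 0.47. The other dehydrogenases did not pass: Acadl, for long chains, had 216 ± 45.9 CPM in WT and 298 ± 34.6 CPM in KO (log2 fold change 0.46, adjusted p = 0.143), and Acad11 had 103 ± 24.0 CPM and 143 ± 9.66 CPM (0.48, adjusted p = 0.137), passing without WT 4 (adjusted p = 0.035). Acadvl, for very long chains, and Acads, for short chains, had log2 fold changes of 0.09 and 0.08, with adjusted p of 0.749 and 0.802. Fold changes within the family thus ran from 0.08 for Acads to 0.89 for Acadm, and no test of the difference between its members was made.

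Of the genes for the later steps of the spiral, 1 of 5 rose. Hadh (ENSMUSG00000027984.8, protein-coding, chr3:131233419-131272101, minus strand), the dehydrogenase for 3-hydroxyacyl groups of short and medium length, had 84.7, 98.2, 76.0, 105, 51.3 and 77.2 CPM in WT 1 to WT 6 and 163, 137, 139 and 165 CPM in KO 1 to KO 4. The lowest KO library lay above the highest WT library, which was again WT 4, while WT 5 was the lowest. The means were 82.1 ± 19.0 CPM and 151 ± 14.9 CPM (log2 fold change 0.88, SE 0.19, adjusted p = 0.0467). Leaving out any library but WT 4 gave adjusted p of 0.0533 to 0.148, and leaving out WT 4 gave 0.004. Hadha and Hadhb encode the alpha and beta subunits of the trifunctional protein for long chains. Hadhb had values of 36.1 to 60.5 CPM in WT and of 65.7, 65.0, 58.9 and 84.0 CPM in KO, so that only WT 4 reached into the KO range (log2 fold change 0.64, SE 0.17, adjusted p = 0.0654). Hadha had 170.1 ± 39.6 CPM in WT and 238 ± 23.3 CPM in KO (0.49, SE 0.18, adjusted p = 0.127), and without WT 4 both subunits were called, with adjusted p of 0.0215 for Hadha and 0.00487 for Hadhb. Acaa2, the mitochondrial thiolase, and Echs1, the short-chain hydratase, had log2 fold changes of 0.15 (adjusted p = 0.585) and -0.04 (adjusted p = 0.9).

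Of the auxiliary enzymes that prepare unsaturated chains for the spiral, Eci1 rose and Decr1 was not called. Eci1 (ENSMUSG00000024132.6, protein-coding, chr17:24426641-24439348, plus strand), the mitochondrial enoyl-CoA isomerase, had 57.2, 38.4, 57.0, 83.2, 43.3 and 55.7 CPM in WT 1 to WT 6 and 114, 108, 96.8 and 133 CPM in KO 1 to KO 4. All KO libraries exceeded all WT libraries, with WT 4 nearest to them. The means were 55.8 ± 15.6 CPM and 113 ± 15.0 CPM, a 2.02-fold difference (log2 fold change 1.01, SE 0.20, adjusted p = 0.0441), which is the lowest adjusted p of the 35 genes. With WT 4 left out the adjusted p was 8.92e-04, and with any other library left out it lay between 0.0521 and 0.147. With 1 surrogate variable the log2 fold change of Eci1 was 0.48. Decr1, the dienoyl-CoA reductase of mitochondria, had a log2 fold change of 0.32 (adjusted p = 0.393), with WT 2 low at 84.4 CPM among WT values that otherwise ran from 155 to 194 CPM. Electron transfer followed with Etfa, Etfb and Etfdh, the flavoprotein subunits and their dehydrogenase, at log2 fold changes of 0.44, 0.53 and 0.38 and adjusted p of 0.137, 0.175 and 0.247.

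**Figure D2:**
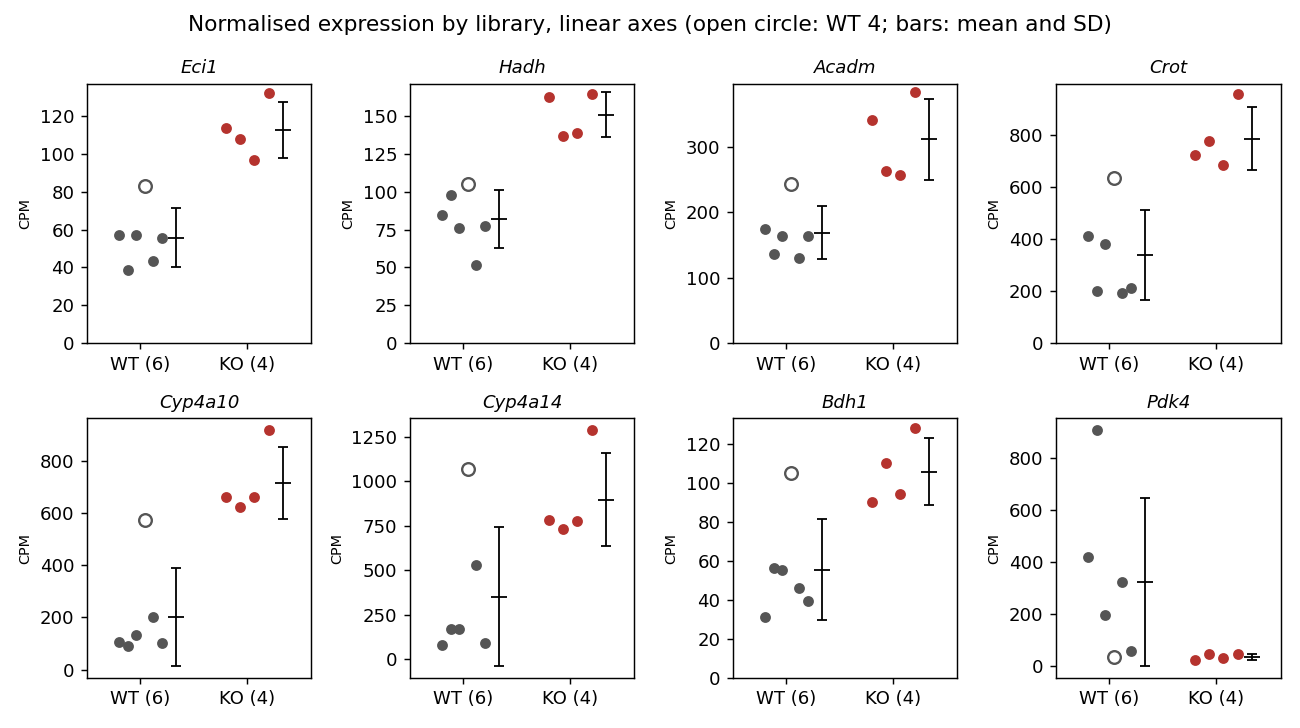
Normalised CPM (linear axes) in each library for 8 of the genes, with WT in grey, KO in red, WT 4 as an open circle, and bars for the mean and SD. Eci1, Hadh, Acadm, Crot and Cyp4a10 show all KO points above all WT points, Cyp4a14 and Bdh1 show WT 4 within the KO range, and Pdk4 shows the wide spread of WT.

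Pdk4, the pyruvate dehydrogenase kinase that spares carbohydrate when fat is burned, had the opposite sign to most of the set and the largest fold change in it. Its values were 419, 906, 197, 33.2, 321 and 55.7 CPM in WT 1 to WT 6 and 20.9, 45.9, 27.7 and 43.7 CPM in KO 1 to KO 4. WT 4 lay inside the KO range and WT 6 just above it, while the other 4 WT libraries lay well above. The highest WT library was 27.3-fold above the lowest, whereas the KO libraries spanned 2.20-fold. Its log2 fold change was -3.22 (SE 0.85) and did not pass (adjusted p = 0.0678), and without WT 4 it was -3.46 (SE 0.72) and passed (adjusted p = 0.00944). With 1 surrogate variable in the fit the difference in Pdk4 was gone, at a log2 fold change of 0.0017. Of 9 other genes of the pyruvate dehydrogenase complex, its kinases and its phosphatases, 0 were called, with 3 fold changes above 0 and 6 below. Pdk2, singled out after its values were seen, went the other way from Pdk4, with 12.1 ± 7.25 CPM in WT and 29.7 ± 3.63 CPM in KO (log2 fold change 1.29, adjusted p = 0.058), and WT 4 (26.7 CPM) was within the KO range here too. Without WT 4 Pdk2 passed, at 1.69 (SE 0.16, adjusted p = 8.91e-05).

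Peroxisomal genes gave 7 fold changes above 0 of 9 and 0 calls. Crot, which hands medium-chain acyl groups from peroxisomes to carnitine, had the largest difference, with values of 410.3, 199, 380.0, 636, 192 and 210.4 CPM in WT 1 to WT 6 and 724, 778, 686 and 958 CPM in KO 1 to KO 4. The groups did not overlap, and WT 4 came closest to the KO libraries. Its log2 fold change was 1.22 (SE 0.32, adjusted p = 0.0658), and without WT 4 it was 1.50 (SE 0.26, adjusted p = 0.00274). Acaa1a, a peroxisomal thiolase, also showed no overlap, with 121 ± 33.9 CPM in WT and 189 ± 17.9 CPM in KO (0.64, SE 0.20, adjusted p = 0.0913), and it passed without WT 4 (adjusted p = 0.0100). The related gene Acaa1b, in contrast, had 362 ± 149 CPM in WT and 265 ± 57.7 CPM in KO (-0.45, SE 0.28, adjusted p = 0.32).

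The multifunctional enzymes of the peroxisomal spiral were not called. Hsd17b4 had 242 ± 40.5 CPM in WT and 340.5 ± 49.6 CPM in KO, with only WT 1 above the lowest KO library (log2 fold change 0.49, SE 0.17, adjusted p = 0.11). Ehhadh varied within WT from 98.3 to 592 CPM and within KO from 220.1 to 631 CPM (0.40, SE 0.43, adjusted p = 0.589). Decr2, the peroxisomal dienoyl-CoA reductase, had a log2 fold change of 0.39 (adjusted p = 0.138), and without WT 4 it passed (adjusted p = 0.0318). Eci2, Pex11a and Acox2 (an isomerase, a factor of peroxisome division and the oxidase of branched chains) had log2 fold changes of 0.05, 0.26 and -0.17, with adjusted p of 0.905, 0.633 and 0.495.

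The Cyp4a genes lie in a cluster on chromosome 4 and encode fatty acid omega-hydroxylases, and 4 of the 5 had fold changes above 0. Cyp4a10 had the largest positive fold change of the 35 genes, with 105, 91.1, 134, 574, 202 and 101 CPM in WT 1 to WT 6 and 661, 622, 661 and 917 CPM in KO 1 to KO 4. The groups did not overlap, and WT 4 stood far above the other 5 WT libraries. The difference was 3.55-fold (log2 fold change 1.83, SE 0.49) and did not pass (adjusted p = 0.0678). Without WT 4 it came to 2.50 on the log2 scale (SE 0.25, adjusted p = 1.33e-04). Cyp4a14 had 80.7, 170.1, 171, 1071 (WT 4), 530.1 and 88.4 CPM in WT and 786, 733, 780.4 and 1289 CPM in KO. WT 4 thus exceeded 3 of the 4 KO libraries, giving a log2 fold change of 1.35 (SE 0.67, adjusted p = 0.227), or 2.11 (SE 0.52, adjusted p = 0.018) without it.

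Cyp4a31 was a low-level member with 6.01, 7.41, 10.6, 20.9, 14.2 and 10.4 CPM in WT 1 to WT 6 and 21.4, 24.6, 20.8 and 24.8 CPM in KO 1 to KO 4. The highest WT library, WT 4, and the lowest KO library were nearly equal, giving a log2 fold change of 0.98 (SE 0.29, adjusted p = 0.0772), with an adjusted p of 0.00317 without WT 4. Cyp4a32 had 11.0, 17.1, 18.3, 28.5, 44.3 and 15.5 CPM in WT, the highest in WT 5, and 24.7, 29.1, 30.1 and 31.0 CPM in KO (0.36, adjusted p = 0.499). Cyp4a12a, a form known to be higher in males, had 333, 34.5, 339, 411, 163 and 283 CPM in WT and 218, 187, 278 and 312 CPM in KO. Its groups overlapped fully (log2 fold change -0.07, SE 0.49, adjusted p = 0.947), and the sign turned to 0.11 without WT 4.

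Reads of the Cyp4a genes cannot be fully assigned to 1 gene. Of all 50-base windows of the annotated transcripts, 43.8% of those of Cyp4a32, 29.8% of those of Cyp4a10 and 20.6% of those of Cyp4a31 also occurred in another gene, mostly in one another. For Cyp4a12a the share was 48.9%, mainly with Cyp4a12b, and for Cyp4a14 it was 0.235%. Values of Cyp4a10, Cyp4a31 and Cyp4a32 are for that reason uncertain as to the gene, while those of Cyp4a14 rest on sequence of its own. Acaa1b (39.6%) and Acaa1a (17.1%) share windows likewise, and among the 35 genes 11 had more than 10% of their windows in another gene. Eci1, Hadh and Pdk4 were at 1.34%, 0.503% and 1.40%. Exons of 23 of the 35 genes, Eci1, Hadh and Acadm among them, overlap no other annotated gene. Those of Crat, Acadvl, Acad11, Hadha, Echs1, Etfb, Etfdh, Acaa1a, Acaa1b, Eci2, Crot and Bdh1 overlap a neighbour, which makes their values uncertain too. For Etfb all of that overlap is on the same strand, and for Acad11 and Crot part of it is.

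**Figure D3:**
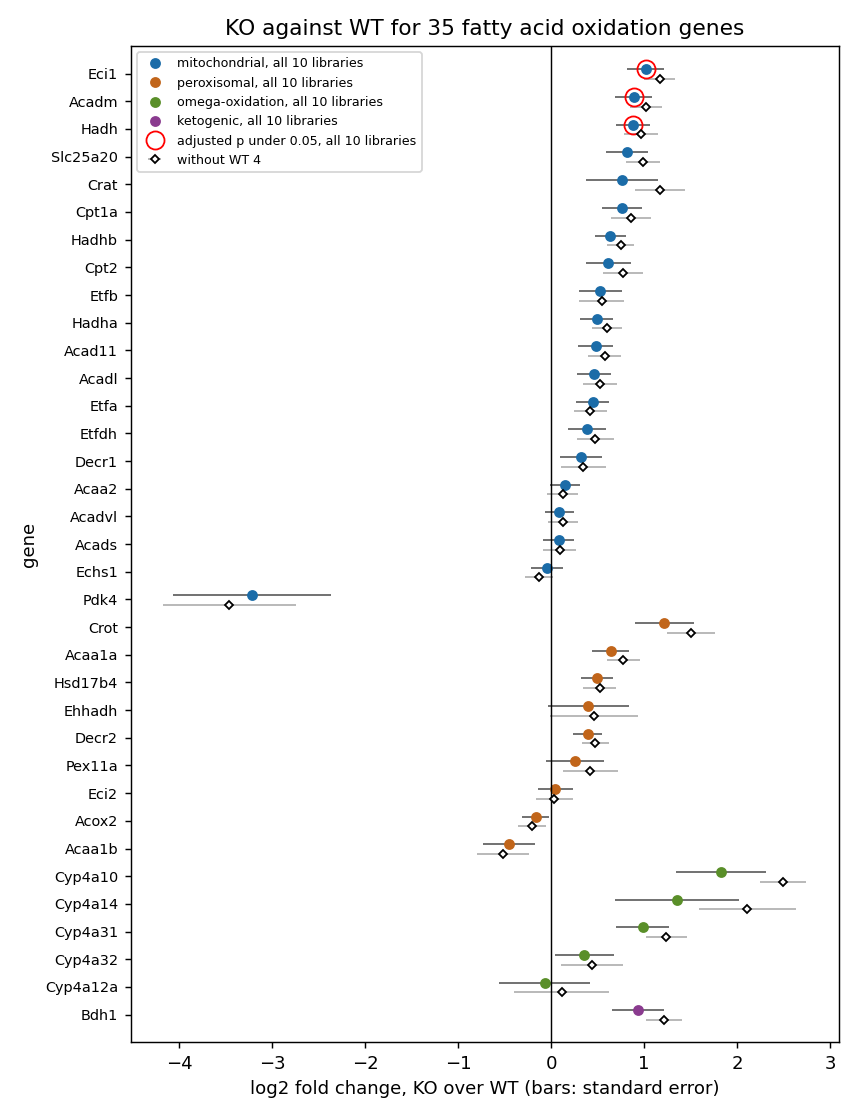
Log2 fold change of KO over WT with its standard error for each of the 35 genes, as filled points from all 10 libraries and open diamonds without WT 4, ordered within each compartment. Red rings mark Eci1, Acadm and Hadh, the 3 called genes. The diamonds lie farther from 0 than the points for Cyp4a10 (2.50 against 1.83), Cyp4a14 (2.11 against 1.35) and Crot (1.50 against 1.22).

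Bdh1, which interconverts the ketone bodies acetoacetate and 3-hydroxybutyrate, had 31.1, 56.5, 55.3, 105, 45.8 and 39.1 CPM in WT 1 to WT 6 and 90.3, 110.2, 94.3 and 128 CPM in KO 1 to KO 4. WT 4 lay inside the KO range and the other 5 WT libraries lay below it. Its log2 fold change was 0.93 (SE 0.28, adjusted p = 0.0832), and without WT 4 it was 1.22 (adjusted p = 0.00182).

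Acat1, a mitochondrial thiolase that acts on acetoacetyl-CoA, does not belong to the 35 genes and was singled out after its values were seen. It had 164 ± 67.0 CPM in WT and 324 ± 36.8 CPM in KO, a log2 difference of 0.98 (SE 0.25) that did not pass (adjusted p = 0.0596). Without WT 4 it was 1.24 and passed (adjusted p = 5.95e-04).

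Levels of different genes were compared per kilobase of annotated exon, merged over all transcripts of a gene. These lengths ran from 1164 bases for Etfb to 9798 bases for Acad11. Which transcripts the liver used was not measured, and windows shared with other genes were not taken out, so the ranks also depend on the annotation. Acaa2 had the highest level of the 35 in both groups, at 317 CPM per kb in WT and 351 CPM per kb in KO. In KO it was followed closely by Cyp4a14 (345 CPM per kb) and Cyp4a10 (339 CPM per kb). Their SDs in KO were 67.8 (Acaa2), 101 (Cyp4a14) and 64.6 (Cyp4a10) CPM per kb, and differences among these 3 were not tested. Pdk4 went from rank 10 in WT (91.7 CPM per kb) to rank 34 in KO (9.83 CPM per kb), whereas Crot went from rank 13 to rank 6. Cyp4a31 was lowest in both groups, at 4.62 and 9.13 CPM per kb.

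**Figure D4:**
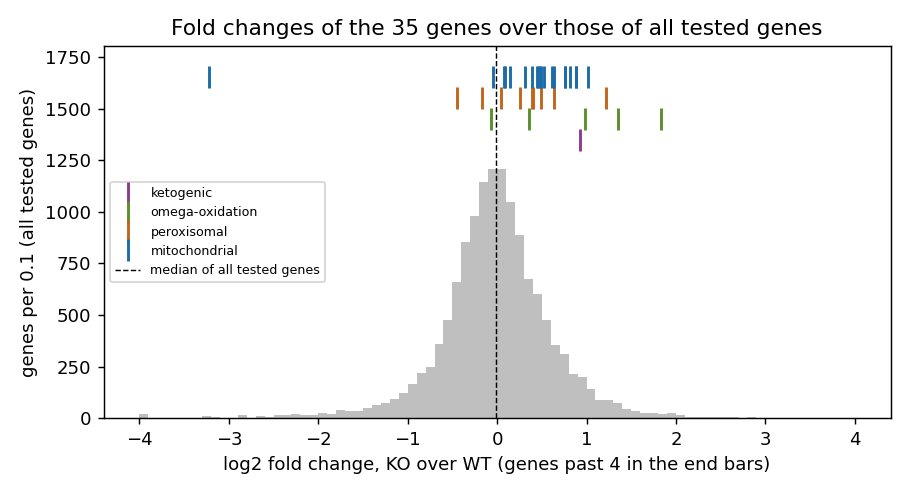
Histogram of the log2 fold changes of all 13687 tested genes in bins of 0.1, with a tick for each of the 35 genes coloured by compartment and a dashed line at the median of all genes (-0.02). The ticks lie mostly to the right of the line, with a median of 0.48, and Pdk4 stands alone at -3.22.

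The ratio of 2 related genes within a library does not depend on library scaling. Ratios of 6 pairs, chosen after the values were seen, were compared by two-sided exact permutation tests over 210 labelings, in which the smallest p possible is 0.00476. The mitochondrial over peroxisomal isomerase (Eci1 over Eci2) lay between 0.123 and 0.326 in WT and between 0.369 and 0.471 in KO, a mean difference of 0.99 on the log2 scale (exact p = 0.00952, adjusted p = 0.0571 over the 6 pairs by Benjamini-Hochberg). Acaa1a over Acaa1b differed by 1.07 (exact p = 0.0429, adjusted p = 0.0858), and Cyp4a10 over Cyp4a12a by 1.92 (exact p = 0.0286, adjusted p = 0.0858). Of the subunit pairs, Hadha over Hadhb differed by -0.13 (exact p = 0.419) and Etfa over Etfb by -0.11 (exact p = 0.595). No pair passed after adjustment.

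Spread among WT libraries was larger than among KO libraries for 30 of the 35 genes, with a median coefficient of variation of 25.9% in WT and 17.8% in KO. This was also the case for 80.4% of all tested genes. WT 4 was the highest WT library for 21 of the 35 (24.9% of all tested genes), and KO 4 was the highest KO library for 29 of the 35 (27.7% of all tested genes). Across the 6 WT libraries the pairwise correlation of log2 CPM had a median r of 0.33 among mitochondrial genes, 0.38 among peroxisomal genes and 0.72 among the Cyp4a genes. The highest was Hadha with Crot (r = 0.99) and the lowest Echs1 with Bdh1 (r = -0.95). These values describe 6 libraries that include WT 4, and genes of 1 library share its depth and scaling.

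Beyond the 35 genes, 99 further genes of the same routes were tested, with 66 fold changes above 0 and a median of 0.26. Of the 99, 2 rose and 1 fell in KO by the test, where 0.563% of all tested genes were called higher and 0.767% lower. Hacl1, which cleaves 2-hydroxy and branched acyl groups in peroxisomes, rose from 44.3 ± 17.9 CPM to 115 ± 34.0 CPM (log2 fold change 1.37, SE 0.29, adjusted p = 0.0467), and Slc27a2, a peroxisomal and microsomal activator of very long chains, rose from 541 ± 140.5 CPM to 1082 ± 145 CPM (1.00, SE 0.21, adjusted p = 0.0465). Neither overlapped between the groups, a pattern shown in this direction by 3.61% of tested genes. Exons of Hacl1 overlap those of Gm49387 on the same strand and exons of Slc27a2 those of Gm26697 on the other strand, so both values are uncertain as to the gene. The gene that fell was Por, the reductase that feeds electrons to the microsomal cytochromes P450 and hence to Cyp4a enzymes (-2.29, SE 0.49, adjusted p = 0.0495), with WT 4 (78.5 CPM) inside the KO range of 69.2 to 120.5 CPM. Without WT 4 the adjusted p was 0.00184 for Hacl1, 0.00239 for Slc27a2 and 2.12e-04 for Por. Each of these 3 calls was lost when any other library was left out, with adjusted p of 0.0551 to 0.151. By route, other mitochondrial and ketone genes had 24 of 32 fold changes above 0, and other peroxisomal genes 29 of 39. Other omega-oxidation genes had 6 of 13 and genes of fatty acid activation 7 of 15, where 48.4% of all tested genes were above 0. Of 17 genes of fatty acid synthesis, 8 had a fold change above 0 and 0 were called.

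Regulators of these routes gave 1 call of 31, where 1.33% of all tested genes were called in either direction. Of the 31, 14 had fold changes above 0. Ppara itself had 18.0, 22.1, 12.5, 28.1, 24.4 and 22.0 CPM in WT 1 to WT 6 and 38.6, 27.7, 28.2 and 45.0 CPM in KO 1 to KO 4. WT 4 lay just above the lowest KO library, for a log2 fold change of 0.72 (SE 0.22, adjusted p = 0.0829), or 0.82 (SE 0.21, adjusted p = 0.017) without WT 4. Ppargc1a, a coactivator of PPARA, and Fgf21, a hormone induced through PPARA, had log2 fold changes of -0.41 (adjusted p = 0.722) and -0.32 (adjusted p = 0.803), and both signs turned under other settings. The called regulator was Insr, the insulin receptor, which rose from 76.6 ± 7.91 CPM to 116 ± 5.92 CPM (0.60, SE 0.13, adjusted p = 0.0467) without overlap. Of 32 other PPARA target genes tested, 20 had fold changes above 0, with a median of 0.47. The 1 that was called, the thioesterase gene Acot5, fell (-7.13, SE 1.32, adjusted p = 0.0441), and WT 4, at 0.340 CPM, again lay inside the KO range of 0 to 0.385 CPM. Without WT 4 the adjusted p was 0.00588 for Insr and 5.31e-04 for Acot5, and both calls were lost when any other library was left out (adjusted p 0.0521 to 0.149).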

How the data were processed

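Polyadenylated RNA of 10 liver samples was prepared with an oligo(dT) selection and sequenced on an Illumina NovaSeq, per the labels' protocols. The deposited table holds whole-number counts per gene, made by the authors. STAR, HTSeq, DESeq2 and mm10 are named in the submitters' processing notes, and their versions and roles, the annotation and any use of strand were not given in the sources used here. The 1 row that names no gene (0.00401% to 0.00941% of counts) was left out.

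The counts were tested with edgeR 4.0.16 (glmQLFit and glmQLFTest with a robust prior, TMM scaling) in R 4.3.3 over all 10 libraries with genotype as the only term. Genes were kept by filterByExpr (minimum count 10, 13687 genes, 99.8% of counts), and p-values were adjusted by Benjamini-Hochberg over all of them, with a threshold of 0.05. CPM are TMM-scaled, and fold changes are KO over WT. The fitting script was tested on simulated data. No animal is named per library, so p-values measure only the spread between these libraries. No 2 libraries of the same group were duplicates (chi-square per degree of freedom 20.8 to 169). WT libraries were not compared with KO libraries in this way. The labels do not pair WT with KO libraries, and same replicate numbers were not treated as pairs in the main fit.

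The members and lists were chosen with earlier results of these data known. Values are printed for each library for called members, the largest fold change in each direction, the Cyp4a genes, Bdh1 and Pdk4, and outside the set values are given for called pathway genes, Ppara, Ppargc1a and Fgf21, with genes singled out afterwards named as such. Alternatives were other scalings, filters and tools (limma 3.58.1, DESeq2 1.42.0, sva 3.50.0), the replicate block and each library left out. Exon positions and lengths are from GENCODE on mm10. Shared sequence was measured on transcript windows of 50 bases, since no protein sequences were used here. Depth was 12306369 to 17096628 counts per library. The result of 1 further gene is not reported here.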

Additional observations from a re-analysis of the deposited data

Results flagged for a closer look

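Among 88 sets of values (44 genes in 2 groups), 9 had a library far from the others of its group by Dixon's test at the 95% level, where chance alone flags about 1 in 20. In KO, KO 4 was high for Slc25a20 (224.5 CPM, others 149 to 161), Crat (121 CPM, others 71.7 to 74.3), Cyp4a10 (917 CPM, others 622 to 661) and Cyp4a14 (1289 CPM, others 733 to 786). In WT, WT 4 was high for Crat (111 CPM, others 21.2 to 52.7), Cyp4a10 (574 CPM, others 91.1 to 202) and Bdh1 (105 CPM, others 31.1 to 56.5). WT 2 was low for Decr1 (84.4 CPM, others 155 to 194). WT 5 was high for Ppargc1a (27.3 CPM, others 0.991 to 8.85). The 9 flagged values thus fall on KO 4 in 4 cases, WT 4 in 3 cases, and WT 2 and WT 5 in 1 case each. Genes of a library do not vary independently (Cyp4a10 with Cyp4a14, r = 0.91 across the WT libraries), so the rate of 1 in 20 is only a rough guide.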

How the results depend on the processing

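RLE and upper-quartile scaling, both other filters and the fit without a robust prior kept 3 of the 35 genes called higher and 0 lower, and limma-voom called 4. DESeq2 called 12 higher and 1 lower (579 and 1039 of all genes), limma-voom 231 and 87 of all genes (72.6% higher, against 42.3% in edgeR), and limma-voom with sample weights 19 and 1 (1409 and 1223 of all genes). With 1 surrogate variable 0 were called (0 and 0 of all genes), where 520 genes had an unadjusted p under 0.05. With the replicate block 0 were called (0 higher and 1 lower of all genes), 20 of the 35 had an unadjusted p under 0.05, and Eci1, Hadh and Acadm had adjusted p of 0.131. Same-numbered libraries had correlations of -0.029 to 0.179 over 4 pairs, 1 of them over 0.1, and 2 of 4 KO libraries correlated best with their own number. With 4 pairs a pairing by number can be neither shown nor excluded. Leaving out 1 library gave 0 to 17 called higher and 0 to 1 called lower, and over all genes 0 to 1420 higher and 0 to 1473 lower. Why the count moves so far was not tested.

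In the set, signs turned in 27 of 700 recomputed member values, for 13 genes, none of them called with all libraries in edgeR or under the setting that turned the sign. Cyp4a12a turned to 0.26 in limma-voom and 0.0167 with sample weights. With 1 surrogate variable the log2 fold changes were -0.0049 for Cpt2, -0.23 for Crat, -0.0438 for Acadvl, -0.00956 for Acad11, 0.32 for Echs1, -0.0662 for Decr1, 0.0017 for Pdk4, 0.0172 for Acox2, 0.14 for Acaa1b and -0.32 for Pex11a. In the replicate block they were -0.0389 for Acadvl, -0.0649 for Acads, 0.0236 for Echs1, -0.12 for Eci2 and 0.20 for Cyp4a12a. Leaving out 1 library moved them between -0.0232 and 0.19 for Acads, -0.14 and 0.05004 for Echs1, -0.0488 and 0.12 for Eci2, -0.00436 and 0.42 for Pex11a, and -0.30 and 0.11 for Cyp4a12a. Outside the set, Ppargc1a and Fgf21 turned to 0.27 and 0.24 in limma-voom, 0.32 and 0.31 with sample weights, and 0.23 and 0.67 with 1 surrogate variable. Ppargc1a was 0.44 in the replicate block. Leaving out 1 library moved Ppargc1a between -0.66 and 0.33 and Fgf21 between -0.56 and 0.0441.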
